A study of Mus musculus with 8 samples.

Results

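The T cell receptor complex and its coreceptors were described in chronic stroke infarcts through 10 genes that were chosen by name. They are the CD3 chains Cd3d, Cd3e and Cd3g, the zeta chain Cd247, the coreceptors Cd4, Cd8a and Cd8b1, the kinase Lck, and the costimulatory receptors Cd28 and Icos. The gene tables list 46078 identifiers, of which 14736 had enough counts to be tested, and all 10 genes were among them. Messenger RNA had been sequenced in bulk from the infarcts of 8 male wild-type C57BL/6J mice aged 18 months, 1 library per animal. Every animal had DH stroke, which closes the distal middle cerebral artery and is followed by a period of hypoxia. Injections under the skin began 1 week after the operation and were repeated 3 times a week over 6 weeks. The 4 vehicle animals received phosphate-buffered saline (PBS), and the 4 HPβCD animals received 2-hydroxypropyl-β-cyclodextrin, a cyclic sugar that binds lipids such as cholesterol, at 4 g/kg. Infarcts were collected at 7 weeks after stroke after perfusion with saline and were cut out by eye, and no unoperated or sham-treated brain was analysed here. The question was how the transcripts of these 10 genes compared between infarcts with and without HPβCD.

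A T cell recognizes antigen through a receptor made of a variable α and β chain, or γ and δ chain, which cannot signal alone. The CD3 chains and the zeta chain carry the signalling tails, CD4 and CD8 bind the MHC molecule that presents the antigen and bring the kinase LCK to the complex, and CD28 and ICOS add a second signal when they meet their ligands. T cells enter the brain after stroke and can persist in the lesion, where they lie beside macrophages and B cells.

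The 8 libraries held 16.6 M to 32.9 M (mega) gene counts. Of all 14736 genes tested with edgeR, 287 had an adjusted p under 0.05 (1.95%), 173 of them higher and 114 lower with HPβCD. A set of 8 neuron genes summed to 1216 and 6796 CPM (counts per M gene counts of the library, the total being scaled by its TMM factor) in vehicle animals 1 and 3, and to between 17.2 and 116 CPM in the other 6 infarcts, so these pieces held unlike amounts of neuron transcripts. HPβCD animal 3 stands apart for T cell transcripts. Some of the results that touch on these animals are also given without them. Raw counts of the 10 genes ranged from 39 (Icos in HPβCD animal 2) to 2525 (Cd28 in vehicle animal 2) per library. In bulk tissue, fewer T cells and less RNA per T cell cannot be told apart.

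None of the 10 genes passed the edgeR test, 0 of 10 against 1.95% of all genes (adjusted p is that of edgeR unless another tool is named). Without adjustment, 2 of 10 (Cd4 and Cd28) had p under 0.05, against 27.8% of all genes tested. The median log2 fold change (HPβCD minus vehicle) of the 10 genes was 0.09, against -0.05 over all genes tested, with 6 positive and 4 negative values between -0.51 and 0.55. Only Cd4 had groups that did not overlap, which is 1 of 10 genes, against 16.8% of all genes tested.

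**Figure D1:**
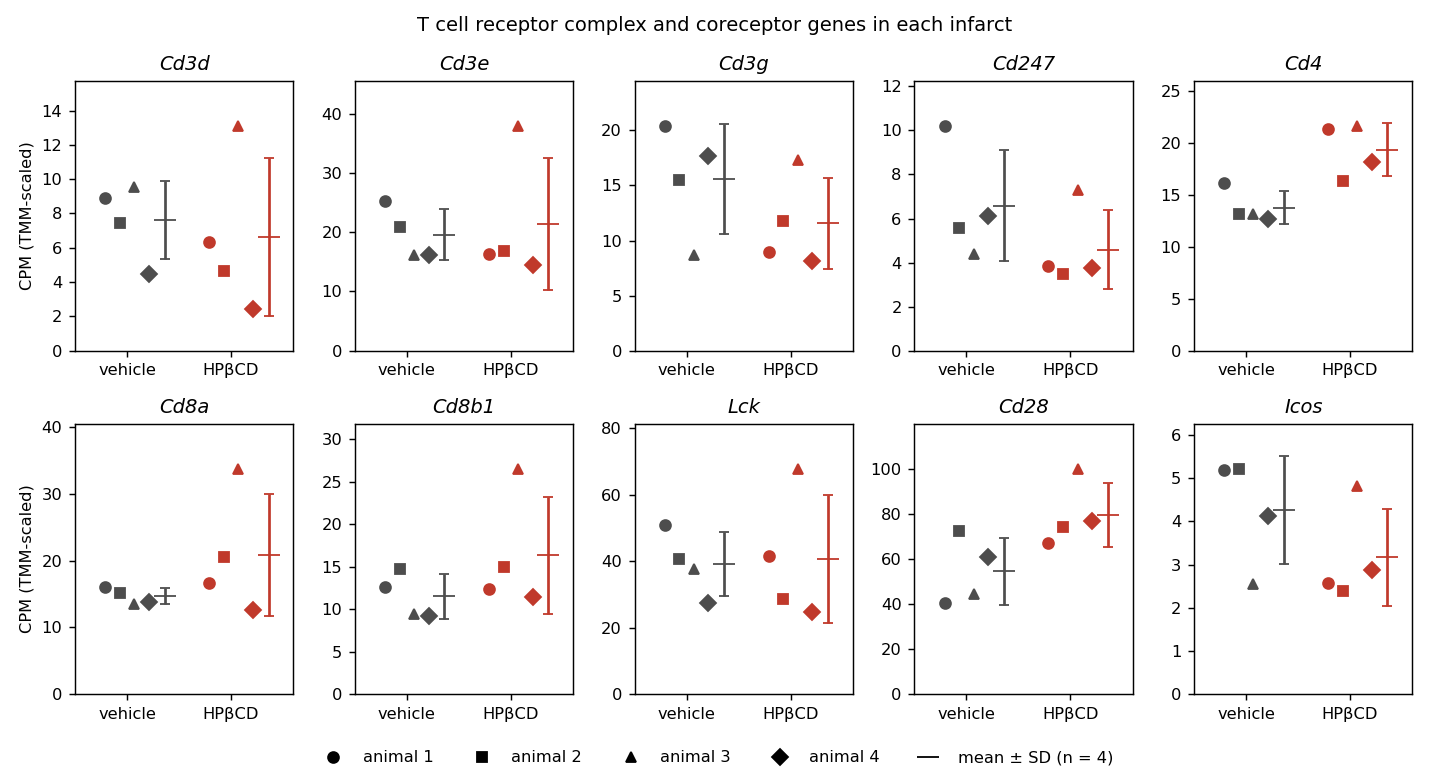
CPM of each of the 10 genes (y axis, linear from 0) in the 4 vehicle and 4 HPβCD infarcts (x axis), with a symbol for each animal number and the mean ± SD of each group. HPβCD animal 3 (triangle) is the highest of its group for all 10 genes, and the Cd4 panel is the only one in which the groups do not overlap.

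The CD3 genes lie close together in the genome, and their promoters are shown because the 3 genes are neighbours. Each had the highest value of the HPβCD group in animal 3, but so did all 10 genes, so this is not particular to the CD3 genes. On GRCm38, Cd3g occupies chr9:44969572-44980431 on the minus strand and Cd3d occupies chr9:44981786-44987339 on the plus strand, so that the pair is transcribed away from a shared interval of 1.35 kb. Cd3e lies 11.4 kb beyond Cd3d, at chr9:44998740-45009627 on the minus strand. The 250 bases before the RefSeq start of each gene, and of Cd247 on chromosome 1, were taken from RefSeq (GRCm38.p6) and are written 5′ to 3′ on the strand of the gene. The RefSeq start of Cd3e lies inside the gene bounds given above, which come from another annotation, so its window reaches a few bases into them. Capitals mark AGGAAG on either strand, a core that ETS family factors recognize.
Cd3g, chr9:44980432-44980681, minus strand: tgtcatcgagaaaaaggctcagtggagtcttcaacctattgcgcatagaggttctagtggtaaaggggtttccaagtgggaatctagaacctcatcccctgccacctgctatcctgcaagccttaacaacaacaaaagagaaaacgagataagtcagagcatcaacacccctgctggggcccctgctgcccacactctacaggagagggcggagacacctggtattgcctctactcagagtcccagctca
Cd3d, chr9:44981536-44981785, plus strand: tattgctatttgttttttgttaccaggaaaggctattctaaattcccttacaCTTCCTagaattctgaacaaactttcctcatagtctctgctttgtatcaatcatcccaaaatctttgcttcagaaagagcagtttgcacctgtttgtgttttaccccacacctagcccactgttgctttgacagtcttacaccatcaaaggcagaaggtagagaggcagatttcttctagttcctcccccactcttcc
Cd3e, chr9:45009612-45009861, minus strand: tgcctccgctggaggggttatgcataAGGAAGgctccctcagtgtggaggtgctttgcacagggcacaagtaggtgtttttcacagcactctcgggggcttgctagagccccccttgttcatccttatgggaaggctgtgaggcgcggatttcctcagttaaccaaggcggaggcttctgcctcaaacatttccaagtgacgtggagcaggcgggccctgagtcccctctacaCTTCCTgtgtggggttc
Cd247, chr1:165788431-165788680, plus strand: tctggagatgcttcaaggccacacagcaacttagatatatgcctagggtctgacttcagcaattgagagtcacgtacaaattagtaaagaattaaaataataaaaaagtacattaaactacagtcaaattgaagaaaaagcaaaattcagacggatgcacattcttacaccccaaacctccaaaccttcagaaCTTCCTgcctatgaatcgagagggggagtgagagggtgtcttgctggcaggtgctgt
The Cd3e window held 2 such matches, the nearer one 17 bases before the RefSeq start, Cd3d held 1 at 198 bases, Cd247 held 1 at 57 bases and Cd3g held 0. Over the 7 RefSeq windows of the 6 genes that had an entry (Cd3d, Cd3e, Cd3g, Cd247, Cd8a and Lck, which has a pair of starts), 5 held AGGAAG, against 29.5% of 32851 mouse windows of the same length. The RUNX core TGTGGT was found in 1 window, that of the distal Lck start (14% of all windows), the E-box CANNTG in 6 (66.2%) and the TATA box TATAAA in 0 (12.4%), each on both strands. These motifs were chosen after the sequences had been seen, and a match describes letters in a window, not binding.

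The CD3 chains were present in every infarct, and neither group was uniformly higher. Cd3e encodes CD3ε, the chain most often stained to find T cells in tissue. It measured 25.2, 20.8, 16.1 and 16.2 CPM in vehicle animals 1 to 4 and 16.3, 16.8, 37.9 and 14.4 CPM in HPβCD animals 1 to 4. The groups overlapped, with HPβCD animal 3 above all others and the other 3 HPβCD animals at or near the lower vehicle values. Means were 19.6 ± 4.36 and 21.4 ± 11.1 CPM (SD, n = 4 each), and the log2 fold change was 0.13 (95% interval -0.61 to 0.87, SE 0.33, adjusted p = 0.839).

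Cd3d encodes CD3δ, which pairs with CD3ε in the complex. Its values were 8.92, 7.47, 9.54 and 4.45 CPM with vehicle and 6.36, 4.65, 13.1 and 2.44 CPM with HPβCD. The highest and the lowest of all 8 infarcts were both HPβCD animals, 3 and 4, a spread of 5.38-fold within that group. The log2 fold change was -0.19 (95% interval -1.27 to 0.89, SE 0.48, adjusted p = 0.832).

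Cd3g encodes CD3γ, the other partner of CD3ε. It measured 20.4, 15.5, 8.7 and 17.7 CPM with vehicle and 9, 11.8, 17.3 and 8.14 CPM with HPβCD. Vehicle animals 1, 2 and 4 were above HPβCD animals 1, 2 and 4, while vehicle animal 3 and HPβCD animal 3 lay in the range of the other group. The log2 fold change was -0.43 (95% interval -1.15 to 0.29, SE 0.32, adjusted p = 0.42).

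Cd247 encodes the zeta chain, which carries the most signalling motifs of the complex. It was found at 10.2, 5.58, 4.41 and 6.12 CPM with vehicle and at 3.84, 3.48, 7.28 and 3.77 CPM with HPβCD. All vehicle animals were above all HPβCD animals except HPβCD animal 3. The log2 fold change of -0.51 (95% interval -1.28 to 0.25, SE 0.34, adjusted p = 0.36) was the lowest of the 10 genes. Genes on the opposite strand, Pou2f1 among them, cover 56.4% of the exon length of Cd247 (chr1:165788681-165877277, plus strand), and since the strand setting of the counting was not given in the sources used here, its counts are uncertain.

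The coreceptor Cd4, which binds MHC class II and marks helper T cells, had the smallest p of the 10 genes. The gene lies at chr6:124864692-124888221 on the minus strand. It measured 16.1, 13.1, 13.1 and 12.7 CPM with vehicle and 21.3, 16.3, 21.6 and 18.1 CPM with HPβCD. Every HPβCD infarct was above every vehicle infarct, although vehicle animal 1 and HPβCD animal 2 lay next to each other. Means were 13.8 ± 1.59 and 19.3 ± 2.56 CPM (SD, n = 4 each), and the log2 fold change was 0.49 (95% interval 0.13 to 0.84, SE 0.16). The adjusted p of 0.0949 did not pass the threshold of 0.05. With DESeq2, the tool used by the authors, Cd4 was the 1 gene of the 10 that passed (adjusted p = 0.0365, against 10.9% of the genes DESeq2 tested). That share, here and below, is over 26507 genes, which include genes too low in counts for the edgeR filter. The other shares are over 14736 genes, so the DESeq2 share is not directly comparable with them. With limma-voom, Cd4 passed together with Cd3g and Icos (adjusted p = 0.0393 for Cd4, 3 of 10 against 21.9% of all genes with limma-voom). Over the 19 alternatives, its log2 fold change lay between 0.41 and 0.59 with adjusted p from 0.0365 to 0.234. CD4 is also found on some dendritic cells in mice. The markers counted next cover only the plasmacytoid and type 1 kinds, and which dendritic cells carried CD4 was not measured. Of 8 markers of plasmacytoid and type 1 dendritic cells, 1 passed the test and fell with HPβCD, Siglech (log2 fold change -2.40, edgeR adjusted p = 0.0483). The 8 markers had 5 positive and 3 negative log2 fold changes with a median of 0.05, so Siglech does not stand for the list. The sum of the 8 overlapped (144 to 228 CPM with vehicle, 112 to 182 CPM with HPβCD, no marker at 0 in every library). The Siglech call was lost without vehicle animals 1 and 3 (log2 fold change -1.79, edgeR adjusted p = 0.0889), with any 1 animal other than vehicle animals 2 and 3 left out, and with the replicate block (edgeR adjusted p = 0.069). A sum of 10 macrophage and microglia markers did not overlap, at 4194 to 6691 CPM with vehicle and 9451 to 16070 CPM with HPβCD, of which 1 of 10 passed the test (Gpnmb, log2 fold change 1.38, edgeR adjusted p = 0.0483) and none was at 0 in every library. Gpnmb, a gene of lipid-laden macrophages, made up 8457 to 14581 CPM of the HPβCD sums, and its call was lost without vehicle animals 1 and 3 (log2 fold change 1.11, edgeR adjusted p = 0.0647). The other 9 markers summed to 849 to 1322 CPM with vehicle and 994 to 1489 CPM with HPβCD, which overlapped. Of the 10 markers, 5 had positive and 5 negative log2 fold changes, the lowest being those of Cx3cr1 (-1.14), P2ry12 (-1.02) and Cd163 (-0.97), with a median of 0.06. The part of these cells in the Cd4 value was not tested.

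Cd8a and Cd8b1 encode the chains of the CD8 coreceptor, which binds MHC class I and marks cytotoxic T cells, and they lie 35.9 kb apart on chromosome 6 (chr6:71373427-71379173 and chr6:71322788-71337494, both on the plus strand). Cd8a measured 16.1, 15.2, 13.5 and 13.8 CPM with vehicle and 16.6, 20.5, 33.7 and 12.6 CPM with HPβCD. Cd8b1 measured 12.6, 14.7, 9.42 and 9.23 CPM with vehicle and 12.4, 15, 26.5 and 11.4 CPM with HPβCD. For both chains HPβCD animal 3 was far above the rest and HPβCD animal 2 came next. HPβCD animals 1 and 4 lay close to the ends of the vehicle range of Cd8a and within that of Cd8b1. The log2 fold changes were 0.51 (SE 0.28, 95% interval -0.13 to 1.15) for Cd8a and 0.50 (SE 0.30, 95% interval -0.17 to 1.18) for Cd8b1, with edgeR adjusted p of 0.279 and 0.302. Without HPβCD animal 3 they were 0.18 and 0.17.

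Lck, at chr4:129548344-129573641 on the minus strand, encodes the kinase that phosphorylates the CD3 and zeta chains. It measured 50.9, 40.7, 37.7 and 27.5 CPM with vehicle and 41.5, 28.7, 67.7 and 24.8 CPM with HPβCD. The vehicle range lay within the HPβCD range, whose highest animal, 3, was above every vehicle value. The log2 fold change was 0.05 (95% interval -0.69 to 0.79, SE 0.33, adjusted p = 0.935).

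The costimulatory receptors Cd28 and Icos lie 204.57 kb apart on chromosome 1 (chr1:60716800-60773359 and chr1:60977927-61000320, both on the plus strand) and had log2 fold changes of opposite sign. Cd28, the receptor for CD80 and CD86 on antigen-presenting cells, measured 40.2, 72.3, 44.3 and 60.7 CPM with vehicle and 67.1, 74, 99.8 and 76.8 CPM with HPβCD. Only vehicle animal 2 reached into the HPβCD range. Means were 54.4 ± 14.9 and 79.4 ± 14.2 CPM (SD, n = 4 each), and the log2 fold change was 0.55 (95% interval 0.06 to 1.04, SE 0.22, adjusted p = 0.144). The lowest vehicle values were those of animals 1 and 3, the infarcts with the most neuron transcripts, and without these 2 animals the log2 fold change was 0.27 (edgeR adjusted p = 0.4). The neuron sum thus ran opposite to Cd28 in these 2 animals, and its part in the Cd28 value was not tested. Over the 8 infarcts, pairs of Cd4 or Cd28 with the other 8 genes had a median Pearson r of 0.07 (-0.30 to 0.68). Pairs within Cd3d, Cd3e, Cd3g, Cd247, Lck and Icos had a median of 0.70 (0.43 to 0.91). Cd28 had r of -0.15 with Cd3d, -0.30 with Cd247 and 0.05 with Lck, but 0.58 with Cd8a and 0.68 with Cd8b1. Which cells carried the Cd28 transcripts was not tested. Icos, an inducible relative of CD28 found on activated T cells, measured 5.19, 5.21, 2.54 and 4.13 CPM with vehicle and 2.58, 2.38, 4.82 and 2.88 CPM with HPβCD. The groups overlapped through vehicle animal 3, which was low, and HPβCD animal 3, which was high. The log2 fold change was -0.43 (95% interval -1.16 to 0.29, SE 0.32, adjusted p = 0.419).

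Divided by exon length, Lck was the most abundant of the 10 genes and Cd247 and Icos the least. Mean levels per kilobase of exon were 13.4 CPM with vehicle and 13.9 CPM with HPβCD for Lck, and 1.23 and 0.862 CPM for Cd247. In vehicle infarcts the order was Lck, Cd28, Cd8b1, Cd3e, Cd3g, Cd3d, Cd8a, Cd4, Icos and Cd247, and among neighbours in that order only Cd8b1 over Cd3e and Cd4 over Icos had ranges that did not overlap. In HPβCD infarcts the first 3 and the last 2 places were the same, and only Cd3g over Icos had separate ranges among neighbours.

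HPβCD animal 3 had the highest value of its group for 10 of 10 genes and of all 8 infarcts for 7, and HPβCD animal 4 had the lowest value of all for 5. The sum of the 10 genes was 206, 211, 159 and 173 CPM with vehicle and 197, 194, 330 and 175 CPM with HPβCD. Only HPβCD animal 3 left the vehicle range of sums. In HPβCD animal 4, Cd28 made up 76.8 of the 175 CPM, so its sum does not show the 5 genes that were lowest there.

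**Figure D2:**
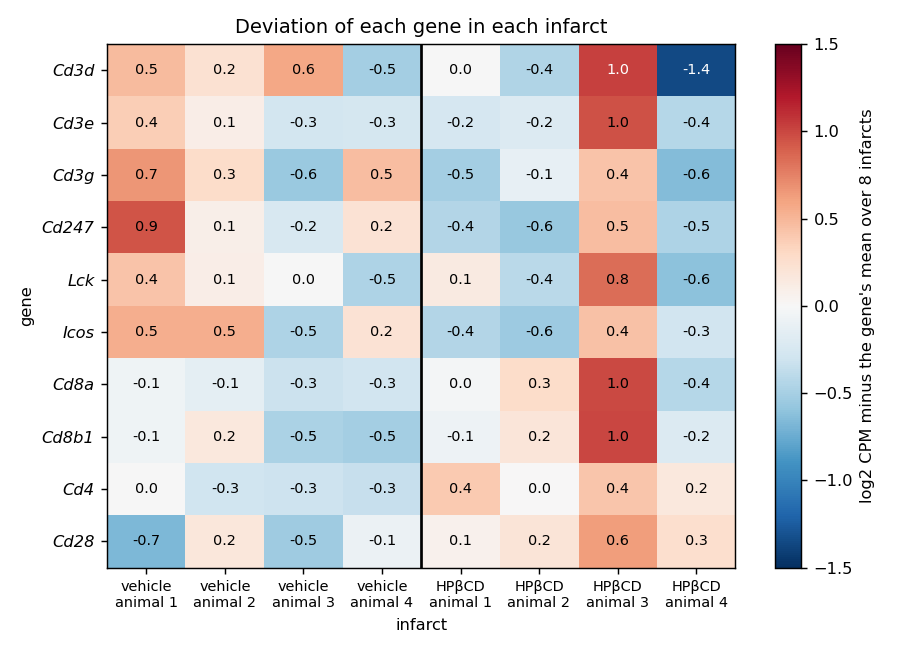
Deviation of log2 CPM from the mean of each gene over the 8 infarcts (color, with the value printed in each cell), by gene (rows) and infarct (columns, vehicle left of the line). The column of HPβCD animal 3 is positive for all 10 genes, between 0.4 and 1.0, while Cd4 and Cd28 differ from the CD3 genes in vehicle animal 1 and HPβCD animal 4.

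The values moved when HPβCD animal 3 was left out. That animal was the highest of its group for all 10 genes, so leaving it out was bound to lower the HPβCD means. The number of positive log2 fold changes went from 6 of 10 to 4 of 10 and the median from 0.09 to -0.30, with no gene past the threshold. Cd3e changed from 0.13 to -0.30 (95% interval -0.77 to 0.18) and Lck from 0.05 to -0.30 (95% interval -0.91 to 0.30). Cd3d changed from -0.19 to -0.76, Cd3g from -0.43 to -0.69, Cd247 from -0.51 to -0.82 and Icos from -0.43 to -0.70. Cd4 at 0.43 and Cd28 at 0.42 remained positive. Leaving out HPβCD animal 4 instead, the lowest of all infarcts for 5 genes, moved the values the other way. Then 7 of 10 were positive with a median of 0.26, and none passed. Without the 2 neuron-rich vehicle animals, 1 and 3, 7 of 10 log2 fold changes were positive with a median of 0.25 and again none passed, Cd4 standing at 0.59 (adjusted p = 0.123), Cd3e at 0.22, Lck at 0.27 and Cd3g at -0.50.

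**Figure D3:**
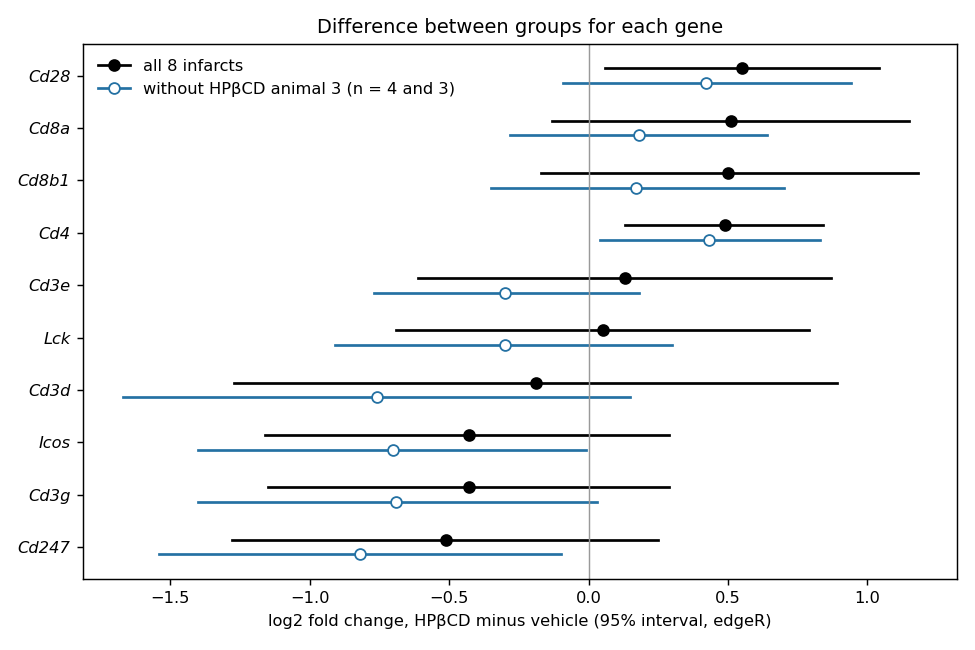
Log2 fold change (HPβCD minus vehicle) of each gene with its 95% interval from edgeR, for all 8 infarcts (filled, black) and without HPβCD animal 3 (open, blue). The animal left out was the highest of its group for all 10 genes. The interval of Cd3e includes 0 in both fits while its estimate goes from 0.13 to -0.30, and the intervals of Cd4 lie above 0 in both fits before adjustment for the number of genes.

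Ratios of genes within an infarct are free of the scaling between libraries. A set of 13 ratios of CPM was formed with the values in view, so they are given as a description with no test. Of these, 4 did not overlap between the groups. Among single genes 16.8% of all tested did not overlap, and no such share was computed for other ratios, so the count is not read as a result. Cd8a over Cd3e was 0.64, 0.734, 0.842 and 0.851 with vehicle and 1.01, 1.22, 0.891 and 0.873 with HPβCD. Cd247 over Cd3e was 0.403, 0.269, 0.274 and 0.377 with vehicle and 0.235, 0.207, 0.192 and 0.262 with HPβCD. The highest HPβCD value of the zeta chain ratio was next to the lowest vehicle value. Icos over Cd28 ranged from 0.0572 to 0.129 with vehicle and from 0.0322 to 0.0483 with HPβCD. Cd8a over Cd4 had the same mean in both groups, 1.07, with a SD of 0.0694 with vehicle and 0.407 with HPβCD.

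The α and β chains bind the antigen. The constant genes of the α and β chains, Trac, Trbc1 and Trbc2, held shares of 43.3, 35.8, 27.8 and 23.4 CPM (here without the TMM factor) in vehicle animals 1 to 4, and 24.6, 24.2, 54.3 and 20.6 in HPβCD animals 1 to 4. The 95% Wilson intervals, which cover counting error only, ran from 51.1 to 57.7 in HPβCD animal 3 and from 40.3 to 46.6 in the next highest, vehicle animal 1. Group means were 32.6 ± 8.8 and 30.9 ± 15.7 CPM (SD, n = 4 each), a difference of -0.15 in mean log2 share (p = 0.714 by a two-sided exact permutation test, which cannot give less than p = 0.0286). Without HPβCD animal 3 the difference was -0.46 (exact permutation test, p = 0.171), and without vehicle animals 1 and 3 it was -0.02. Over all 267 receptor gene segments in the files, the difference was -0.30 (exact permutation test, p = 0.314).

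Of the 8 constant genes, 7 were tested and 0 passed, with a median log2 fold change of -0.41. With DESeq2 0 passed as well, against 10.9% of the genes DESeq2 tested. With limma-voom 3 passed, Trbc1, Trdc and Tcrg-C1, against 21.9% of all genes. Below an unadjusted p of 0.05 were 2 of 7, both lower, against 27.8% of all genes. Trac, the only α constant gene, measured 21.4, 18.3, 18.7 and 12.9 CPM with vehicle and 17.6, 18.2, 40.3 and 11 CPM with HPβCD (log2 fold change 0.29, SE 0.37, adjusted p = 0.659, and -0.19 without HPβCD animal 3). Trbc1, a β constant gene, measured 6.43, 5.1, 3.5 and 2.9 CPM with vehicle and 1.32, 1.16, 3.59 and 2.38 CPM with HPβCD (log2 fold change -1.08, SE 0.42, adjusted p = 0.136), and the groups overlapped through HPβCD animal 3. Its neighbour Trbc2 had a log2 fold change of -0.21 (SE 0.31, adjusted p = 0.708). The ratio of Trbc1 to Trbc2 was 0.502, 0.493, 0.472 and 0.443 with vehicle and 0.215, 0.192, 0.284 and 0.328 with HPβCD, with no overlap. These genes are near-identical in sequence, reads that match both are by default not assigned by HTSeq, and the split between them is therefore uncertain.

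The δ constant gene Trdc, which marks γδ T cells, measured 1.07, 2.52, 0.181 and 2.68 CPM with vehicle and 0.229, 0.367, 0.107 and 0.72 CPM with HPβCD. Raw counts were low, 3 to 88 with vehicle and 2 to 13 with HPβCD. The groups overlapped through vehicle animal 3 (log2 fold change -2.19, SE 0.79, adjusted p = 0.119). The log2 fold change was -2.84 without vehicle animals 1 and 3 (edgeR adjusted p = 0.0468) and -2.54 without vehicle animal 3 alone (edgeR adjusted p = 0.0454). With any other single animal left out, the edgeR adjusted p was between 0.122 and 0.27. The γ constant genes Tcrg-C1, Tcrg-C2 and Tcrg-C4 had log2 fold changes of -1.23, 0.20 and -0.41 (edgeR adjusted p of 0.293, 0.655 and 0.621), and Tcrg-C3 had too few counts to be tested.

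**Figure D4:**
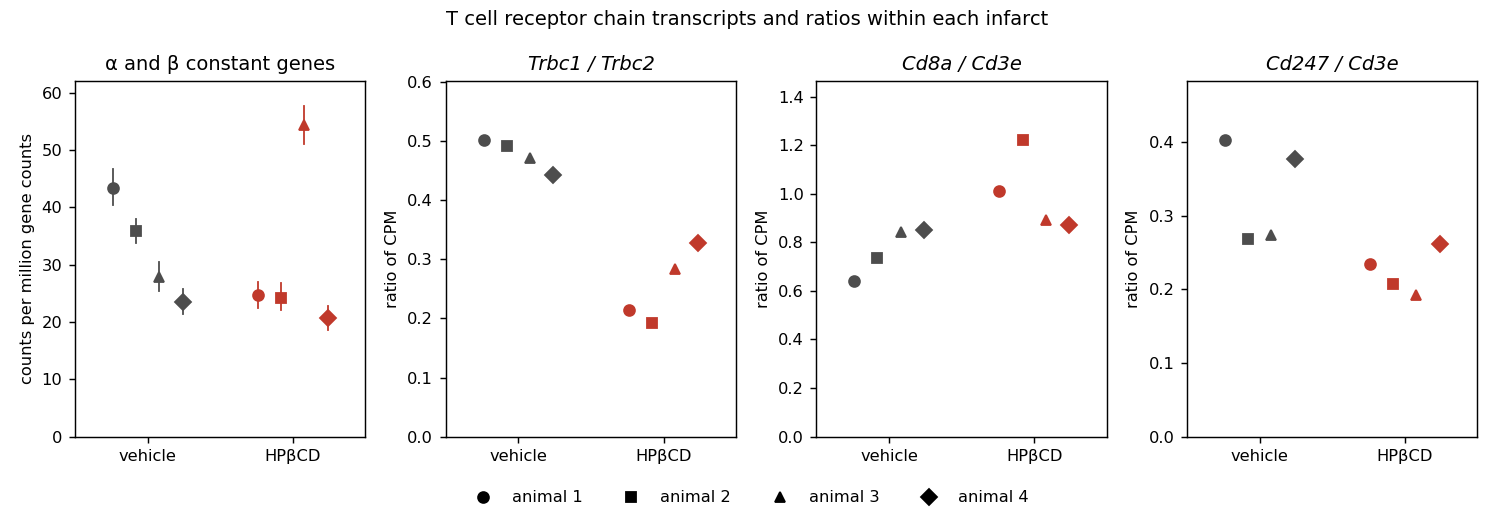
Left, share of gene counts in the α and β constant genes in each infarct (y axis, CPM of the unscaled total, linear from 0), with 95% Wilson intervals. The other panels show ratios of CPM within an infarct, taken from a set of 13 that was formed with the values in view. Their vehicle and HPβCD symbols do not overlap for Trbc1 over Trbc2 (0.443 to 0.502 and 0.192 to 0.328), Cd8a over Cd3e and Cd247 over Cd3e.

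Below the receptor, kinases, adaptors and transcription factors carry the signal into the cell. Of 26 such genes, 25 were tested and 0 passed (against 1.95% of all genes). At an unadjusted p under 0.05 there were 3, Rasgrp1, Ptpn22 and Plcg1 (27.8% of all genes), with DESeq2 there was 1, Rasgrp1 (10.9%), and with limma-voom there were 4, Plcg1, Ptpn22, Grap2 and Malt1 (21.9%). The list had 19 negative and 6 positive log2 fold changes and a median of -0.25 (-0.05 over all genes). The largest was that of Rasgrp1, an exchange factor for Ras that acts in T cells and in neurons, which measured 188, 42.1, 275 and 27.2 CPM with vehicle and 13.4, 9.11, 22.4 and 15.8 CPM with HPβCD (log2 fold change -3.13, SE 0.78, adjusted p = 0.0704). Its highest values were in vehicle animals 1 and 3, whose neuron marker sums were 1216 and 6796 CPM, and without these 2 animals its log2 fold change was -1.17 (edgeR adjusted p = 0.112). The part of neurons was not tested. Plcg1, the phospholipase that turns receptor signals into calcium release, did not overlap between the groups (62.7 to 68.2 CPM with vehicle and 68.5 to 91.8 CPM with HPβCD, log2 fold change 0.30, edgeR adjusted p = 0.159). Ptpn22, a phosphatase that dampens LCK signalling, had a log2 fold change of -0.71 (SE 0.29, adjusted p = 0.155). The most abundant genes of the list were Ptprc, the leukocyte antigen CD45 (log2 fold change -0.36), Csk, the kinase that restrains LCK (-0.03), and Bcl10, an adaptor to NF-κB (-0.01), with edgeR adjusted p of 0.475, 0.932 and 0.988.

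The ligands and rivals of CD28 and ICOS held the 1 gene in these T cell lists that passed the test. The lists held 10, 7, 25, 4 and 20 tested genes, so 1 call among them is near the 1.95% called over all genes. Cd80, a ligand of CD28 on antigen-presenting cells, measured 9.37, 15.4, 7.85 and 20 CPM with vehicle and 31, 36.6, 43.2 and 32.6 CPM with HPβCD. Every HPβCD infarct lay above every vehicle infarct. Cd80 rose with HPβCD by a log2 fold change of 1.44 (95% interval 0.77 to 2.12, SE 0.30, adjusted p = 0.0499). The adjusted p stood just under the threshold and was above it in 12 of 19 alternatives, among them without any 1 of 7 animals (all but vehicle animal 3), with log2 fold changes from 1.04 to 1.73. Cd86, the other ligand, had a log2 fold change of -0.47 (SE 0.29, adjusted p = 0.317), and Icosl, the ligand of ICOS, of -0.54 (SE 0.28, adjusted p = 0.246). Ctla4, the inhibitory receptor that competes with CD28 for CD80 and CD86, measured 2.14, 2.32, 0.906 and 1.82 CPM with vehicle and 0.516, 0.245, 1.66 and 0.665 CPM with HPβCD (log2 fold change -1.21, SE 0.54, adjusted p = 0.185), with vehicle animal 3 and HPβCD animal 3 in the range of the other group. Gpnmb was higher in all HPβCD infarcts, as Cd80 was, while the sum of the other 9 macrophage and microglia markers overlapped between the groups, and the part of macrophages in the Cd80 value was not tested.

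Of 20 genes for T cell subsets and homing, 0 passed the test, 16 had negative log2 fold changes, and the median was -0.40. With DESeq2 4 passed, against 10.9% of the genes DESeq2 tested, and with limma-voom 5, against 21.9% of all genes, Cd69 among both. At an unadjusted p under 0.05, 5 were lower (27.8% of all genes were below it in either direction). Without vehicle animal 3, 3 of 20 were lower past the test (Ccr7 and Cd69 among them), against 629 of 14906 genes called in that fit. Cd69, an early activation and tissue-retention marker, measured 5.7, 5.04, 1.81 and 3.81 CPM with vehicle and 1.09, 1.28, 2.03 and 1.77 CPM with HPβCD, with vehicle animal 3 alone of its group in the HPβCD range (log2 fold change -1.40, SE 0.38, adjusted p = 0.0746). Cd69 is also expressed by B cells, and the sum of 8 B cell markers was 150 to 554 CPM with vehicle and 48.2 to 135 CPM with HPβCD, with 4 of 8 lower past the test (Blk, Cd79a, Cd79b and Fcer2a, log2 fold changes -1.82, -1.89, -1.88 and -2.38, edgeR adjusted p of 0.0483, 0.0485, 0.0483 and 0.0483) and none at 0 in every library. Over all genes, 1.95% passed. The count of 4 B cell markers became 0 without any 1 of vehicle animals 1 and 4 and the 4 HPβCD animals. It was 1 with vehicle animal 2 left out, 7 with vehicle animal 3 left out and 5 without vehicle animals 1 and 3. All 8 passed with DESeq2 (10.9% of the genes DESeq2 tested) and with limma-voom (21.9% of all genes). All 8 were lower at an unadjusted edgeR p under 0.05. The part of B cells in the Cd69 value was not tested. Il7r, the interleukin 7 receptor of resting T cells, had a log2 fold change of 0.05 (SE 0.32, adjusted p = 0.94), and S1pr1, the receptor that guides exit from lymphoid tissue and is also an endothelial gene, had a log2 fold change of -0.56 (SE 0.26, adjusted p = 0.198).

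**Figure D5:**
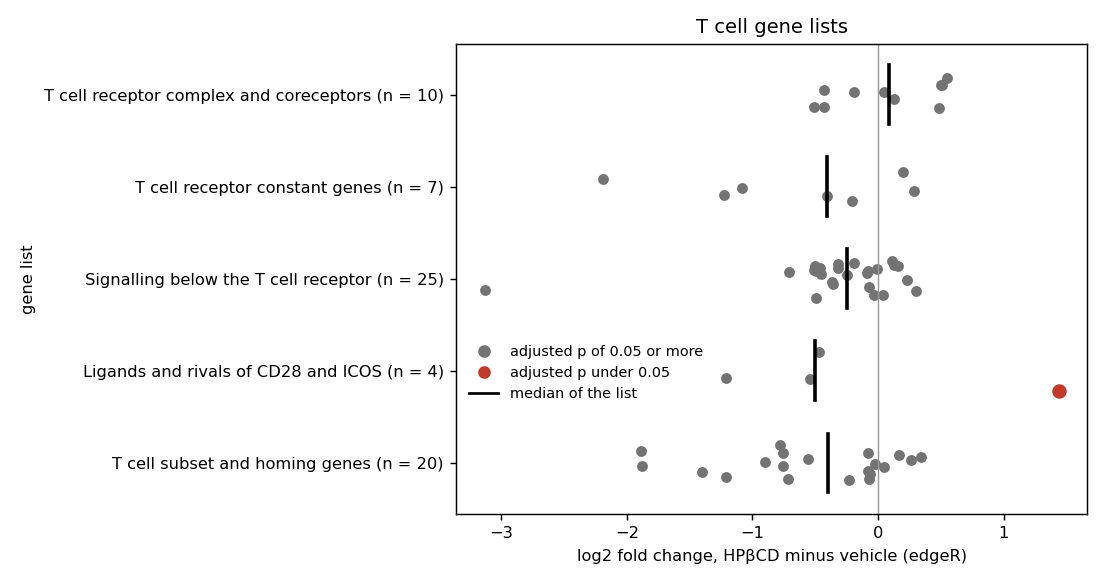
Log2 fold change (x axis, HPβCD minus vehicle, edgeR) of each tested gene in the 5 T cell lists (y axis), with the median of each list as a bar and the 1 gene past the threshold in red. The medians run from -0.51 for the 4 ligands and rivals to 0.09 for the 10 receptor complex and coreceptor genes, and the red point is Cd80 at 1.44.

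NK cells also use the zeta chain and LCK, and 0 of 8 NK cell markers passed the test (1 at an unadjusted p under 0.05, Ncr1, against 27.8% of all genes, 0 with DESeq2 against 10.9%, and 2 with limma-voom, Klrk1 and Ncr1, against 21.9%), with a median log2 fold change of -0.24 and sums of 27.8 to 47.1 CPM with vehicle and 25.7 to 56.5 CPM with HPβCD. The highest NK sum was that of HPβCD animal 3, as for the 10 genes, but its markers did not move together. Nkg7, Eomes, Prf1 and Gzma were highest of all infarcts there (32.6, 8.41, 2.78 and 1.5 CPM). Ncr1 was lowest of all there (0.857 CPM), and Klrb1c, Klrk1 and Klre1 lay within the range of the other infarcts (4.34, 4.44 and 1.61 CPM).

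The genes whose pattern over the 8 infarcts was most like that of the CD3 chains were found by Pearson correlation with the mean log2 CPM of Cd3d, Cd3e and Cd3g, over 13934 genes at a mean of 1 CPM or more. They were Il12rb1, a chain of the interleukin 12 receptor (r = 0.98, Spearman rho = 0.86), Tnfrsf4, the costimulatory receptor OX40 (r = 0.98, rho = 0.98), Gzmk, the protease granzyme K (r = 0.96, rho = 0.93), the kinase Vrk1 (r = 0.95, rho = 0.98) and the splicing factor Srsf5 (r = 0.94, rho = 0.95). They were selected for this likeness from many genes, so no test is given. HPβCD animals 3 and 4 lay farthest from the median of the CD3 mean, and over the other 6 infarcts r was 0.95, 0.96, 0.90, 0.85 and 0.75 in the same order. Gzmk followed the CD3 genes with 8.07, 5.1, 4.35 and 3.86 CPM with vehicle and 4.64, 3.79, 8.19 and 2.6 CPM with HPβCD, and the highest and lowest infarct were again HPβCD animals 3 and 4.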

How the data were processed

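RNA from 8 infarcts was sequenced, 4 per group, with groups and animal numbers from the sample labels. The authors made strand-marked libraries from polyadenylated RNA. The submitters' processing notes name bcl2fastq 2.19, Trimmomatic 0.32, STAR 2.5.2b, HTSeq, DESeq2 and the build GRCm38. The strand setting of the counting and the annotation release were not given in the sources used here. The deposited values are raw counts per gene, 1 table per animal, with 5 tally lines (26.6% to 36.6% of a library) that were left out. Symbols matched 45143 of 46078 identifiers. Coordinates came from GENCODE M21, and the γ constant genes were matched by RefSeq synonyms. The labels give no batch, and p-values measure the spread between these animals.

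Genes passing filterByExpr were tested with edgeR 4.0.16 in R 4.3.3 (TMM, robust quasi-likelihood F test, no covariate), with Benjamini-Hochberg adjustment over all tested genes and a threshold of 0.05. SE and intervals follow from each fold change and its F value, and the prior count of log2 CPM was 2. The receptor share was tested over all 70 assignments of animals to groups. Alternatives were DESeq2 1.42.0, limma 3.58.1 (voom with sample weights), other scalings and filters, thinning, a block for the animal number and leaving out animals. The scripts were tested on simulated data. The 10 genes and all lists were chosen with earlier results of these data known, so no list was tested as a set. Named are the 10 genes, the constant genes, 5 genes of like pattern and, from each T cell list, the genes that passed, the 3 with the smallest p and the 3 most abundant, besides short counts. From lists of other cell types, genes that passed are named. A few genes that this rule selects are not reported here.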

Additional observations from a re-analysis of the deposited data

Results flagged for a closer look

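In 22 sets of 4 animals (the 10 genes and the α and β constant share, in each group), the gap of the highest or lowest animal to its neighbour was divided by the range. Gap and range were taken on the log2 scale, although CPM are printed below. The result was set against Dixon's 95% critical value, which chance exceeds in about 1.1 of 22 sets. Cd3e in HPβCD animal 3, at 37.9 CPM against 16.8 CPM in the next highest of its group, had a gap of 0.84 of the range. Cd247 in HPβCD animal 3, at 7.28 CPM against 3.84 CPM, had a gap of 0.869 of the range. Cd4 in vehicle animal 1, at 16.1 CPM against 13.1 CPM, had a gap of 0.862 of the range.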

How the results depend on the processing

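The 10 genes gave 0 calls in every alternative except DESeq2 (1, Cd4) and limma-voom (3, Cd3g, Cd4 and Icos). Over all genes, the 287 calls became 2899 with DESeq2, 3231 with limma-voom, 11 with library totals alone, 57 with upper-quartile scaling and 98 without robust estimation, and the cause was not tested. Leaving out 1 animal gave 0 to 629 calls (0 with any of vehicle animals 1 and 4 and HPβCD animals 2 and 3 left out, 4 when it was HPβCD animal 1, 538 for vehicle animal 2 and 629 for vehicle animal 3). Among the 10 genes and Trac, log2 fold changes that changed sign were those of Cd3d (-0.76 to 0.09 without single animals, 0.17 without vehicle animals 1 and 3), Cd3e (-0.30 to 0.28, and -0.04 with limma-voom), Lck (-0.30 to 0.24, and -0.03 with library totals alone) and Trac (-0.19 to 0.51), the negative ones of Cd3e and Trac without HPβCD animal 3. Il7r ran from -0.16 to 0.45 without single animals and was -0.05 with library totals alone and -0.32 without vehicle animals 1 and 3. Csk ran from -0.16 to 0.04 and was 0.00 with every counted gene. Bcl10 ran from -0.18 to 0.13 and was 0.01 with DESeq2, 0.01 with upper-quartile scaling and 0.02 with every counted gene. Cd80 and Gpnmb kept their calls without vehicle animal 3 and lost them without any other single animal. The difference in the α and β constant share ran from -0.46 (without HPβCD animal 3) to 0.01 (without HPβCD animal 4).

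Animal numbers are shared by the groups, but the deviations of equally numbered animals correlated at -0.26, 0.24, 0.33 and 0.10, so the numbers were not taken as pairs. With the replicate block, 9 genes and 0 of the 10 passed, Lck was -0.03, Bcl10 0.04 and the share difference -0.15 (exact permutation test, p = 0.75). With 4 animals per group, the intervals of the 10 genes are wide.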
